A study of Drosophila melanogaster with 8 samples.

Results

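A small set of genes was near silent in the guts of one group of flies and counted in every library of the other group. The guts came from adult female Drosophila melanogaster and formed 2 groups of 4 libraries. Control guts carried a UAS transgene for GFP (UAS>GFP, genotype label wt), and LamDm0 guts expressed a UAS transgene for LamDm0, a B-type lamin, in the absorptive enterocytes of the gut (genotype label Dmo overexpression in EC). Flies of both groups were raised at 18 °C and moved to 29 °C as females of 2 to 4 days, 2 days before RNA was taken from dissociated guts. The labels name neither the driver of the transgenes nor the strain background, nor the number of guts in a library, and RNA of whole guts holds all gut cell types and not enterocytes alone. They call the libraries biological repeats and say nothing more of their source, so p-values measure the spread between these libraries only. Fewer cells of a type and less RNA per cell cannot be told apart in such libraries.

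The genes were chosen by their level in CPM, the counts of a gene scaled to 1000000 counts of its library. A gene was taken when its mean was under 0.5 CPM in one group and it reached at least 1 CPM in all 4 libraries of the other. Of 17559 genes in the table, 36 (0.205%) met these thresholds. From these, 12 were left out by name, namely Orc2, Dscam4 and 10 genes with CR symbols, which are given to non-coding genes and pseudogenes. The 24 genes that remained are 17 that were on in LamDm0 guts only and 7 that were on in control guts only. Because the contrast between the groups chose them, the differences between the groups are given as a description and without a test.

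The nuclear lamina is a protein meshwork under the inner nuclear membrane, built from lamins, and chromatin that touches it is largely silent. In the fly midgut, stem cells divide and give rise to enteroblasts, which become polyploid enterocytes, and to enteroendocrine cells. Genes for cell division are therefore active in few cells of an adult gut, and many genes of germline, muscle or nerve are close to silent in the epithelium.

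The expressed gene was counted as the labels say. Lam lay between 14.1 and 20.1 CPM in control libraries and between 3300 and 4290 CPM in LamDm0 libraries (log2 fold change 7.62 ± 0.278, SE). This difference had an adjusted p of 6.4e-06 in the quasi-likelihood test of edgeR, adjusted by Benjamini-Hochberg over all genes tested, which is the test behind every adjusted p given here. Libraries held 19720070 to 36022790 counts, and a count of 0 allowed up to 3 counts, or 0.0833 to 0.152 CPM. Intervals and floors here cover counting error only. LamDm0 replicates 3 and 4 lay closer to each other over the whole table (chi-square per gene 48.35) than to LamDm0 replicates 1 and 2 (242.6 to 406.1), and several of the genes differed between these libraries. LamDm0 replicates 1 and 2 were not close to each other (222.2). Control libraries lay in pairs, with 28.43 between replicates 1 and 2, 89.31 between 3 and 4, and 191.5 to 290.9 across. Scaling by column totals, which the rule uses, moved the median log2 fold change of all tested genes to 0.199, against 0.0103 with the TMM scaling of the fit, which shifts folds of CPM toward LamDm0 guts.

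Where they were on, the 24 genes were still mostly low. An on library held between 24 and 409 counts of a gene. Per kilobase of exon, the 16 annotated genes on in LamDm0 guts had 0.357 to 13.8 CPM there (median 1.32, against a median of 8.14 for 8611 tested genes), and the highest, CG32640, lay at percentile 63.2 of those genes. Those on in control guts had 0.699 to 3.65 CPM per kilobase (median 1.82, against 7.08). Near silent seldom meant absent, since 15 of the 24 had counts in every library of the silent group and only CG17826 was at 0 in all 4. The ratio between the groups ran from 3.60 for squ to 565 for CG32640 with a median of 13, and 15 of the 24 differed by 10-fold or more. It was a ratio of means, or of pooled counts where the silent group had 1 to 3 counts. CG17826 entered by its floor value of 177, which has no upper limit, so its ratio could exceed that of CG32640. In all 24 the libraries of the groups did not overlap, beside 18.2% of the 8794 tested genes, and all 24 passed the filter on low counts through the group in which they were on. edgeR called 22 of the 24, beside 8.03% of all tested genes, and Ilp3 and CG4020 were not called. The rule used the same contrast, so nothing is read from these counts.

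**Figure D1:**
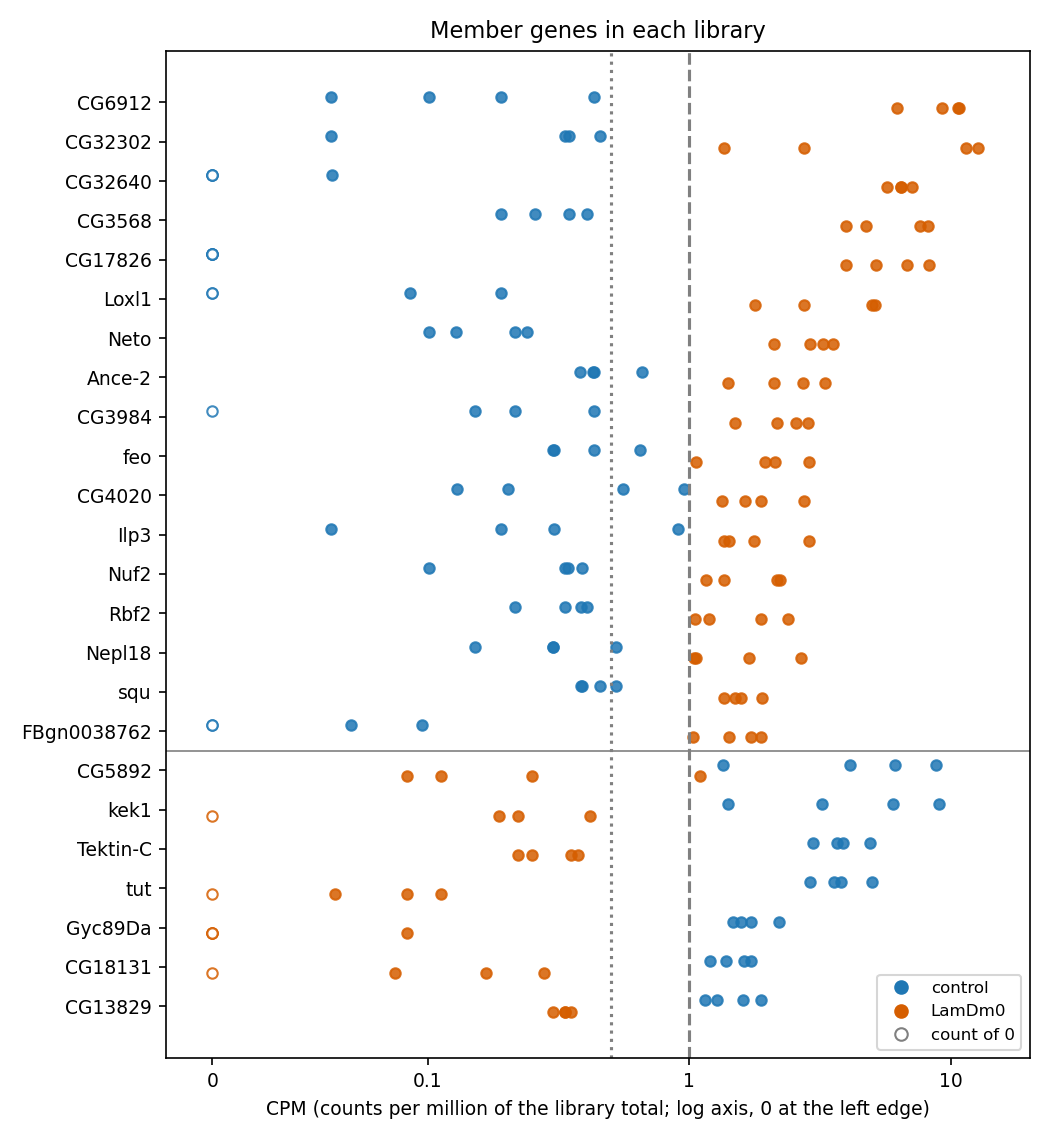
Level of each of the 24 genes in each of the 8 libraries, as CPM by column total on a log axis with counts of 0 drawn as open points at the left edge, for control and LamDm0 libraries. The upper 17 genes were on in LamDm0 guts only and the lower 7 in control guts only, and the highest level in a silent library was 1.1 CPM, for CG5892 in LamDm0 replicate 2.

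Among the genes on in LamDm0 guts, 3 have known parts in cell division or its control. Nuf2 (2L, 7064431 to 7065837 in BDGP6.54) encodes a subunit of the NDC80 complex, which joins kinetochores to microtubules. It had 0.334, 0.101, 0.343 and 0.388 CPM in control replicates 1 to 4 and 1.16, 1.36, 2.21 and 2.17 CPM in LamDm0 replicates 1 to 4. Mean levels were 0.292 ± 0.129 and 1.73 ± 0.54 CPM (SD, n = 4 each), a ratio of 5.91. Next is feo (X, 10852446 to 10854869), the fly PRC1, which bundles microtubules of the central spindle. Its levels were 0.43, 0.304, 0.3 and 0.647 CPM in control and 1.95, 1.06, 2.12 and 2.86 CPM in LamDm0 libraries, a ratio of means of 4.75. LamDm0 replicate 2 was the lowest of its group for feo. Rbf2 (3R, 15965446 to 15968138) encodes a retinoblastoma family protein that represses E2F target genes. It had 0.334, 0.406, 0.385 and 0.216 CPM in control and 1.05, 1.19, 1.87 and 2.39 CPM in LamDm0 libraries, a ratio of 4.85. In all 3 genes LamDm0 replicates 3 and 4 stood above replicates 1 and 2, by 1.66-fold for feo, 1.73-fold for Nuf2 and 1.91-fold for Rbf2.

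Of the 4 markers of stem cells and enteroblasts, 0 passed edgeR's test (0 at an unadjusted p under 0.05, 0 in DESeq2 and 0 in limma-voom), and their summed level was 34.9 to 66.7 CPM in control and 27.3 to 69.3 CPM in LamDm0 libraries. Their levels also ran higher in LamDm0 replicates 3 and 4, with esg, a stem cell and enteroblast transcription factor, at 12.9, 12, 30.6 and 29.8 CPM in LamDm0 replicates 1 to 4. The part of these cells in the levels of feo, Nuf2 and Rbf2 was not tested.

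Another 5 of the genes on in LamDm0 guts encode secreted or membrane proteins or enzymes of known families. Loxl1, listed as lox by the authors (3R, 31458380 to 31459869), encodes a lysyl oxidase, an enzyme of the class that cross-links collagen. It was counted at 0.191, 0, 0.0857 and 0 CPM in control and at 5.13, 4.97, 2.75 and 1.78 CPM in LamDm0 libraries, a ratio of 52.9. Loxl1 ran against the order of most others, since LamDm0 replicates 1 and 2 were the high ones. Its mean in replicates 3 and 4 was 0.448 of that in 1 and 2. The log2 fold change of the fit was 5.53 with all libraries, 4.58 without LamDm0 replicates 1 and 2, and 6.58 without control replicate 1.

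Neto (X, 13445903 to 13527282) encodes an auxiliary protein of the glutamate receptors at the neuromuscular junction. It lay at 0.239, 0.101, 0.128 and 0.216 CPM in control and 2.89, 2.11, 3.54 and 3.25 CPM in LamDm0 libraries. Means were 0.171 ± 0.0664 and 2.95 ± 0.618 CPM (SD, n = 4 each), 17.2-fold apart, and the LamDm0 libraries were close to each other. Visceral muscle markers did not separate the groups, with 0 of 6 passing edgeR (0 unadjusted, 0 in DESeq2, 0 in limma-voom) and sums of 946 to 1800 CPM in control and 979 to 2000 CPM in LamDm0 libraries. Neuron markers summed to 9.69 to 10.8 CPM and 5.89 to 13.8 CPM, with 0 of 4 passing edgeR (0 unadjusted, 0 in DESeq2, 0 in limma-voom), and their part in the level of Neto was not tested.

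Ilp3 (3L, 9801298 to 9802120) encodes an insulin-like peptide made in neurosecretory cells of the brain and in midgut muscle. Control replicate 4 had 0.906 CPM, more than the 0.191, 0.304 and 0.0428 CPM of control replicates 1 to 3. LamDm0 replicates 1 to 4 had 1.35, 1.76, 2.87 and 1.42 CPM, so the ratio of means was 5.12. Control replicate 4 thus held most of the control counts of Ilp3. The log2 fold change of the fit was 2.12, and 3.21 without control replicate 4.

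Ance-2 (2L, 13909333 to 13911719) is related to angiotensin-converting enzyme, a peptidase. It had 0.382, 0.659, 0.428 and 0.431 CPM in control and 2.1, 1.41, 3.29 and 2.72 CPM in LamDm0 libraries, 5.01-fold higher in the means. Ance-2 also marks the edge of the rule, with the highest silent mean taken, 0.475 CPM, while dgt4 at 0.514 CPM was the next gene outside. Nepl18 (3R, 28875621 to 28877805) belongs to the neprilysin-like metallopeptidases. Its levels were 0.525, 0.152, 0.3 and 0.302 CPM in control and 2.66, 1.06, 1.04 and 1.69 CPM in LamDm0 libraries, a ratio of 5.04. LamDm0 replicates 2 and 3 lay just above 1 CPM, close to the threshold.

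The germline gene squ (2L, 16680054 to 16681653), which acts in the piRNA pathway that silences transposons, had the smallest ratio of the set. It was counted at 0.525, 0.456, 0.385 and 0.388 CPM in control and at 1.57, 1.36, 1.5 and 1.89 CPM in LamDm0 libraries. The means of 0.439 ± 0.0661 and 1.58 ± 0.222 CPM differed 3.60-fold, with little spread inside either group. Of its exon bases, 16.3% overlap grp, a checkpoint kinase gene on the same strand, so counts of squ could hold reads of grp, which lay at 13.1 ± 1.54 CPM in control and 24.7 ± 9.39 CPM in LamDm0 libraries (adjusted p = 0.087, edgeR). Ovary and eggshell markers summed to 0.143 to 0.3 CPM in control and 0.555 to 0.958 CPM in LamDm0 libraries. Of the 9 matched, Cp16 and Vm34Ca were at 0 in every library, 1 was tested, and that gene, the eggshell gene Cp18, was higher in LamDm0 guts (log2 fold change 2.10 ± 0.466, SE, adjusted p = 0.029 by edgeR, up to 0.078 when a library was left out, past the threshold in 1 of the 8 such fits). The part of ovary RNA in the level of squ was not tested.

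The remaining 8 genes on in LamDm0 guts carry no name beyond an identifier and are given without a role. They include the widest ratios of that direction. CG17826 (3L, 11949839 to 11952225) had no count in any control library and 3.97, 5.15, 8.21 and 6.8 CPM in LamDm0 replicates 1 to 4. Against a floor of 3 counts over the control group its ratio was 177, and the lower limit of its 95% exact interval was 143. CG32640 (X, 13178005 to 13178523) had 1 count in all control libraries together, in replicate 4, and 5.7, 6.42, 6.46 and 7.11 CPM in the LamDm0 libraries. Its ratio of pooled counts was 565, with a 95% exact interval of 101 to 22340, and without control replicate 4 the control group had no count. CG32640 was also the most even of the 24 across the libraries in which it was on, with a coefficient of variation of 8.98%. FBgn0038762, which has no symbol and no entry in the annotation used here, had 3 counts in control libraries and 1.87, 1.72, 1.42 and 1.03 CPM in LamDm0 libraries, a ratio of pooled counts of 42.5 (95% exact interval 14.3 to 208). Its log2 fold change in the fit was 5.13, and 6.09 without control replicate 1. It also holds the lowest on library taken by the rule, at 1.03 CPM, while CG13204 just missed the rule with a lowest LamDm0 library of 0.958 CPM.

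CG6912 (3R, 15135138 to 15137004) had the highest mean CPM of the set where it was on, not corrected for length. It had 0.191, 0.101, 0.0428 and 0.431 CPM in control and 10.7, 6.2, 10.6 and 9.22 CPM in LamDm0 libraries, a ratio of means of 47.8. The log2 fold change of the fit was 5.34, and 6.17 without control replicate 4. CG3984 (3R, 15137148 to 15139007) starts 144 bp from CG6912. It had 0.43, 0.152, 0 and 0.216 CPM in control and 2.85, 2.55, 2.17 and 1.5 CPM in LamDm0 libraries, a ratio of 11.4. The mean of LamDm0 replicates 3 and 4 over that of 1 and 2 was 0.679 for CG3984 and 1.17 for CG6912. The log2 fold change of CG3984 in the fit was 3.37, and 4.01 without control replicate 1. These were the closest 2 of the 24 genes. All 1731 exon bases of CG3984 are covered by an RNA of the opposite strand, asRNA:CR45600, which met the same thresholds with means of 0.207 CPM in control and 12 CPM in LamDm0 libraries. CG6912 shares 20 bp of exon (1.4% of its exon bases) with asRNA:CR45600 on the same strand, so its counts could hold some reads of that RNA. The strand setting of the counting is not given in the sources used here, so the level of CG3984 is uncertain.

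CG32302 (3L, 2268825 to 2269903) was the least even of the set. Its control libraries had 0.334, 0.456, 0.0428 and 0.345 CPM, and LamDm0 replicates 1 to 4 had 2.74, 1.36, 12.7 and 11.4 CPM. LamDm0 replicates 3 and 4 were 5.88-fold above replicates 1 and 2, and the ratio between the groups was 23.9. The log2 fold change of the fit was 4.30 with all libraries, 2.83 without LamDm0 replicates 3 and 4, and 5.0 without replicates 1 and 2. CG3568 (X, 4542630 to 4544497) had 0.191, 0.406, 0.257 and 0.345 CPM in control and 3.97, 4.75, 7.58 and 8.16 CPM in LamDm0 libraries, 20.4-fold higher in the means. CG4020 (X, 5905746 to 5908001) was the weakest of these, at 0.954, 0.203, 0.557 and 0.129 CPM in control and 1.87, 1.63, 2.75 and 1.33 CPM in LamDm0 libraries, a ratio of 4.11. Control replicate 1 came within 1.4-fold of the lowest LamDm0 library in CG4020, the smallest gap among genes on in LamDm0 guts.

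The 7 genes on in control guts only include 4 with a known product. kek1 (2L, 12817000 to 12822787) encodes a transmembrane protein with leucine-rich repeats and an immunoglobulin domain that inhibits the EGF receptor. It was counted at 3.2, 8.98, 1.41 and 6.0 CPM in control and at 0.187, 0, 0.417 and 0.222 CPM in LamDm0 libraries. The means of 4.90 ± 3.31 and 0.207 ± 0.171 CPM (SD, n = 4 each) were 23.7-fold apart, while the control libraries themselves spread widely, with replicate 3 the lowest and replicate 2 the highest. The log2 fold change of the fit was -4.72, and -5.51 without LamDm0 replicates 3 and 4.

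The gene tut (3L, 8209577 to 8210743) encodes an RNA-binding protein that acts with bam and bgcn in the male germline. Its levels were 3.58, 4.97, 3.81 and 2.89 CPM in control and 0.112, 0.044, 0 and 0.0833 CPM in LamDm0 libraries, 63.6-fold lower in LamDm0 guts. Tektin-C (3L, 5794405 to 5796543) encodes a tektin, a filament protein of axonemes such as the sperm tail. It had 2.96, 4.92, 3.68 and 3.88 CPM in control and 0.375, 0.352, 0.25 and 0.222 CPM in LamDm0 libraries, a ratio of 12.9. Control libraries were even for both genes, with coefficients of variation of 22.7% and 21.0%. All flies were females, and the 7 testis and sperm markers summed to at most 0.101 CPM in control and 0.0749 CPM in LamDm0 libraries, with Mst84Da, Mst84Db and Mst98Ca at 0 throughout. Accessory gland markers reached at most 0.0431 CPM in a library.

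Gyc89Da, listed as Gyc-89Da by the authors (3R, 16472601 to 16475477), encodes an atypical soluble guanylyl cyclase. It had 2.2, 1.72, 1.58 and 1.47 CPM in control libraries and 2 counts in the LamDm0 libraries together, both in replicate 3. The ratio of pooled counts was 94.8, with a 95% exact interval of 25.8 to 790, and without LamDm0 replicate 3 the LamDm0 group had no count. Of its exon bases, 85% are covered by asRNA:CR46029 on the opposite strand, so this level is uncertain too.

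CG5892 (3R, 21242618 to 21245418) was uneven inside both groups. It ran at 8.78, 6.09, 4.11 and 1.34 CPM in control and at 0.112, 1.1, 0.0833 and 0.25 CPM in LamDm0 libraries, a ratio of means of 13.2. LamDm0 replicate 2 came within 1.22-fold of control replicate 4, and without it the log2 fold change of the fit went from -3.84 to -5.21. It was -5.13 without LamDm0 replicates 1 and 2 and -3.04 without LamDm0 replicates 3 and 4. CG13829 (3R, 23160477 to 23161338) was even in both groups, at 1.15, 1.27, 1.88 and 1.6 CPM in control and 0.3, 0.352, 0.333 and 0.333 CPM in LamDm0 libraries, a ratio of 4.47. CG18131 (2L, 1498455 to 1500608) had 1.72, 1.62, 1.2 and 1.38 CPM in control and 0.0749, 0, 0.167 and 0.278 CPM in LamDm0 libraries, 11.4-fold lower in LamDm0 guts. Its log2 fold change in the fit was -3.59, -4.23 without LamDm0 replicate 4 and -5.0 without LamDm0 replicates 3 and 4. Just outside the rule lay Nepl12, with a LamDm0 mean of 0.504 CPM, and CG13318, with a lowest control library of 0.906 CPM.

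The genes on in LamDm0 guts were uneven within that group in the same sense as other genes. The ratio of the mean of LamDm0 replicates 3 and 4 to that of replicates 1 and 2 had a median of 1.36 over the 17 genes, against 1.3 over the 7825 genes with at least 1 CPM in all 4 LamDm0 libraries. It was above 1.5 in 7 of the 17, against 28.9% of those genes, and only Loxl1 lay under its reciprocal. In the 7 genes on in control guts the median ratio was 0.779, against 0.894 over 7690 genes. Members were more variable than other genes: the median coefficient of variation was 32.2% against 21.1% in LamDm0 libraries and 22.6% against 15.2% in control libraries, at the lower counts of the members.

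**Figure D2:**
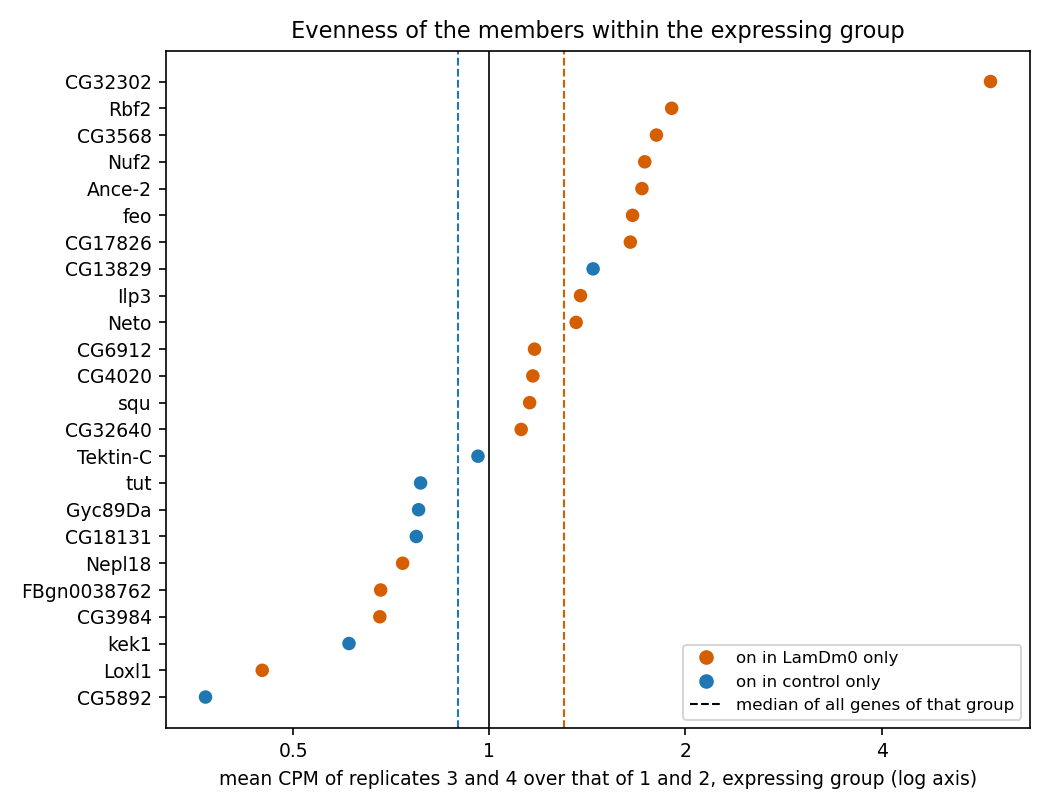
Ratio of the mean CPM of replicates 3 and 4 to that of replicates 1 and 2 within the group in which each of the 24 genes was on, on a log axis, with the median of all genes of that group as a dashed line. CG32302 stands out at 5.88 and Loxl1 at 0.448 among genes on in LamDm0 guts, and CG5892 is lowest at 0.367 among those on in control guts.

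The rule left out most non-coding genes by name, and the 23 genes found in the annotation are protein-coding. They lay on X (5), 2L (5), 3L (5) and 3R (8), with none on 2R, where 20.1% of the 7535 genes with at least 1 CPM in all 4 libraries of a group lie. All 5 genes on X were on in LamDm0 guts. Single-exon genes made up 5 of the 23 (21.7%), beside 9.49% of those 7535 genes, and the median exon length was 1731 bp beside 2121 bp. After CG6912 and CG3984, the next closest were CG32640 and Neto at 0.267 Mb, then Gyc89Da and Rbf2 at 0.504 Mb, and the others lay at least 1.09 Mb from another. Among the genes left out by name, Dscam4, with means of 10.1 CPM in control and 0.343 CPM in LamDm0 libraries, lies 27.9 kb from tut.

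The levels of the genes next to the members were not used in the choice, so they could be tested. This holds less well where a neighbour may share reads with its member. Among the calls below these are CG32641, beside CG32640, and CG11334, which shares 48 bp of exon with Loxl1 on the same strand. For the 23 members with a position, the nearest counted gene on each side, and any counted gene overlapping the member, gave 54 neighbours. Of these, 34 passed the filter. Other members were skipped, so CG6912 and CG3984 are not neighbours of each other here. Genes with a name that the rule leaves out were skipped too, among them asRNA:CR45600 and asRNA:CR46029, which cover exons of CG3984 and Gyc89Da. Of the 34 tested neighbours, 4 were higher and 2 were lower in LamDm0 guts by edgeR's test adjusted over all 8794 genes. That is 17.6%, beside 8.03% of all tested genes (4.76% higher and 3.26% lower). The median log2 fold change of the 34 was 0.0324, beside 0.0103 over all tested genes. Called neighbours moved with their member in 4 cases and against it in 2. The count was 3 without control replicate 2 or without LamDm0 replicate 4, and lay between 3 and 7 over the 8 fits that left a library out. The other 28 tested neighbours did not pass, and 21 of the 54 stayed under 1 CPM in all libraries.

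**Figure D3:**
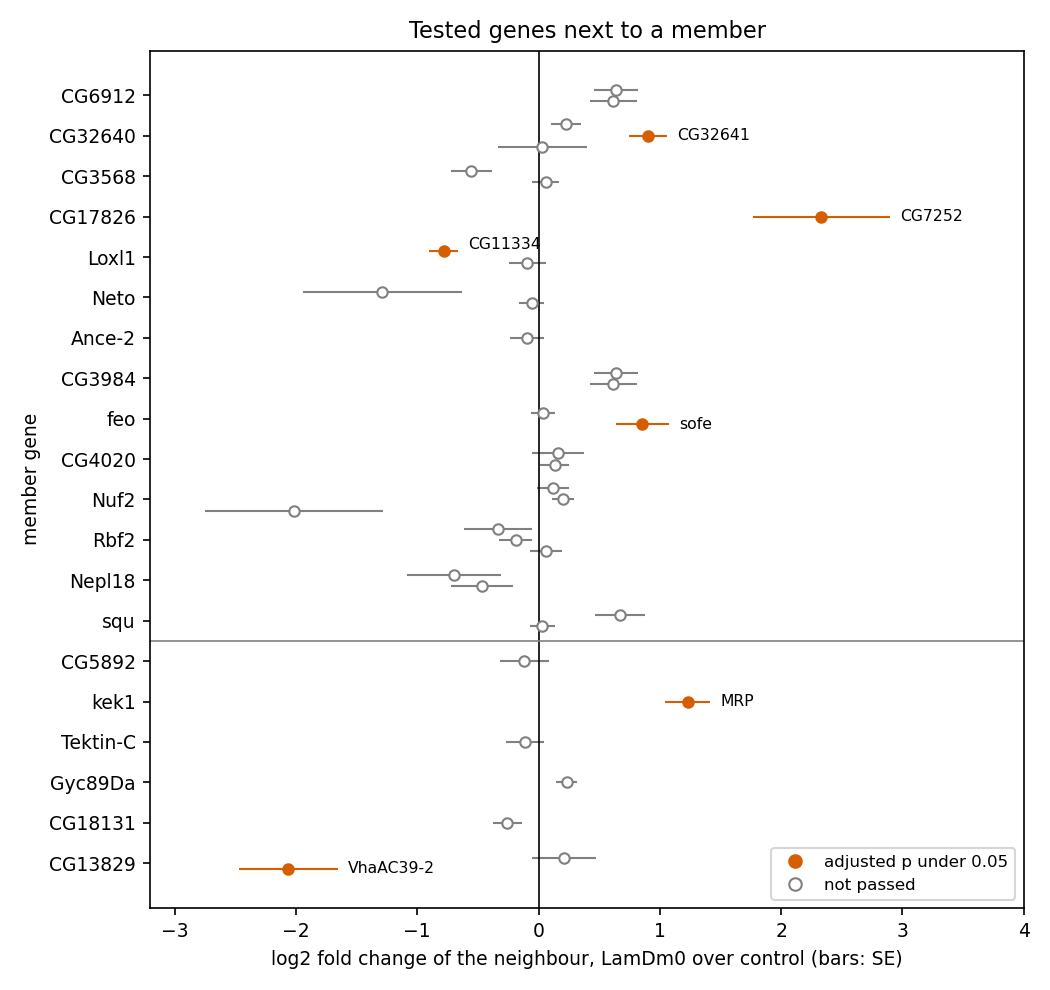
Log2 fold change, LamDm0 over control, of each tested gene next to one of the 24 genes, with SE bars, one row per member and filled points for neighbours with an adjusted p under 0.05. The calls are MRP, sofe, CG7252 and CG32641 above 0 and VhaAC39-2 and CG11334 below 0, among points that lie mostly near 0.

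CG32641 lies 5955 bp from CG32640, and the pair have exons of the same length, 466 bp. CG32641 had 3.91, 3.7, 2.48 and 3.58 CPM in control and 6.74, 6.95, 6.87 and 8.19 CPM in LamDm0 libraries. It was higher in LamDm0 guts (log2 fold change 0.90 ± 0.156, SE, adjusted p = 0.011 by edgeR), at most 0.034 when any 1 library was left out. Summed over both genes, control libraries had 3.43 ± 0.643 CPM and LamDm0 libraries 13.6 ± 1.2 CPM (SD, n = 4 each). CG32640 held 0, 0, 0 and 1.19% of that sum in control libraries and 45.8, 48.0, 48.4 and 46.5% in LamDm0 libraries. No sequence of these genes was used here, and whether their reads can be told apart is not known, so the split between them is uncertain.

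sofe, the gene 131 bp from feo, was at 1.29, 1.42, 1.03 and 0.733 CPM in control and at 2.1, 1.98, 2.71 and 2.36 CPM in LamDm0 libraries. The groups did not overlap, and sofe passed narrowly (log2 fold change 0.86 ± 0.221, adjusted p = 0.049 by edgeR), but not when any 1 of the 8 libraries was left out (adjusted p up to 0.12) or with DESeq2's size factors in place of TMM (0.052). CG7252, 591 bp from CG17826, had 0.62, 0.659, 0.343 and 0.561 CPM in control and 1.16, 1.01, 7.0 and 4.19 CPM in LamDm0 libraries. It passed (2.33 ± 0.566, adjusted p = 0.040 by edgeR), with LamDm0 replicates 3 and 4 carrying most of the difference. Its log2 fold change was 1.02 without those libraries and 2.99 without LamDm0 replicates 1 and 2, and the call was lost in 6 of the 8 fits that left out a library (every control, LamDm0 replicate 3 and LamDm0 replicate 4). On its other side, obst-G, of the chitin-binding obstructor family and 76 bp from CG17826, was near 0, with a highest mean of 0.0139 CPM in LamDm0 guts.

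VhaAC39-2, a subunit of the vacuolar proton pump, lies 1161 bp from CG13829 and was also lower in LamDm0 guts. Its levels were 1.62, 3.4, 3.21 and 2.85 CPM in control and 0.412, 1.23, 0.75 and 0.611 CPM in LamDm0 libraries (log2 fold change -2.06 ± 0.41, adjusted p = 0.020 by edgeR). The call was lost without control replicate 2, LamDm0 replicate 3 or LamDm0 replicate 4 (adjusted p up to 0.061). The 2 neighbours that moved against their member kept their calls in all 8 fits without a library. MRP, a transporter of the ATP-binding cassette family that lies 50454 bp from kek1, had 242, 288, 365 and 265 CPM in control and 590, 739, 939 and 874 CPM in LamDm0 libraries (1.23 ± 0.187, adjusted p = 0.0061 by edgeR, at most 0.025 without 1 library). CG11334, whose exons share 48 bp with Loxl1 on the same strand, had 67.3, 51.7, 47.8 and 51.2 CPM in control and 30.8, 36.2, 38.2 and 37.7 CPM in LamDm0 libraries (-0.78 ± 0.12, adjusted p = 0.0062 by edgeR, at most 0.023 without 1 library).

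**Figure D4:**
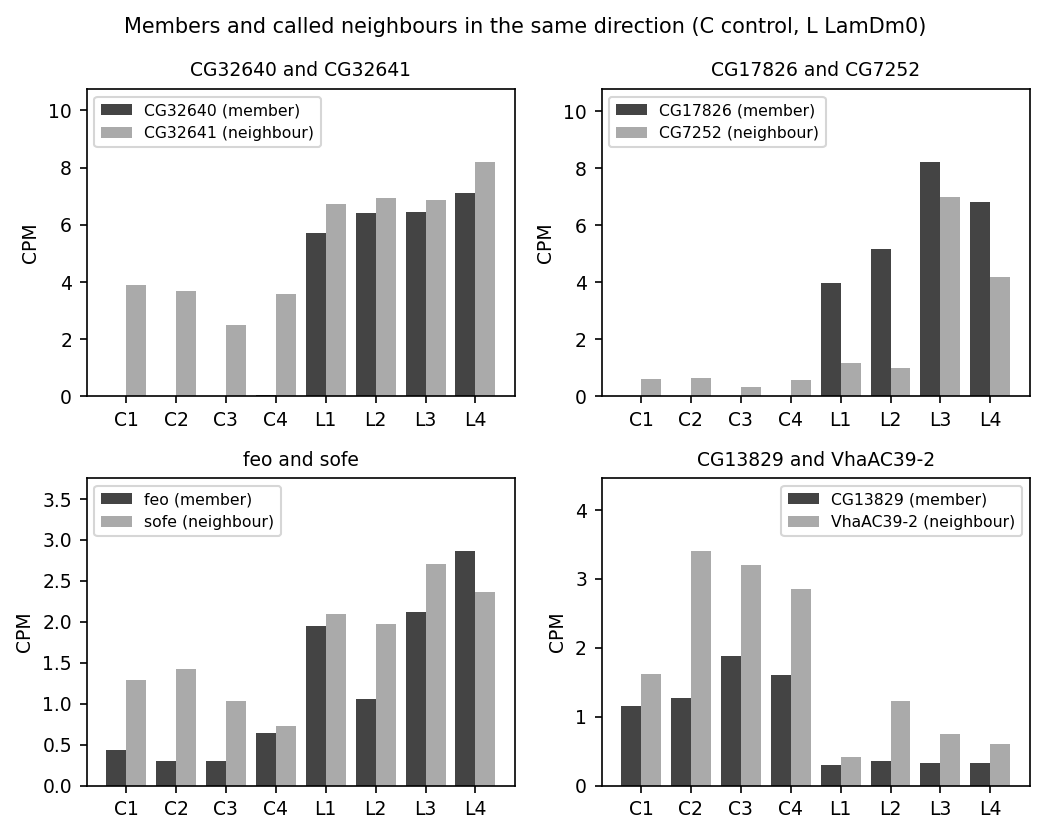
CPM of 4 of the 24 genes (dark bars) and of the called neighbour that moved in the same direction (light bars) in control replicates 1 to 4 (C1 to C4) and LamDm0 replicates 1 to 4 (L1 to L4), with axes starting at 0. CG7252 is high in L3 and L4 at 7.0 and 4.19 CPM, and CG32641 was counted in every control library while CG32640 had 1 count in the control libraries together.

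Several genes that were near silent in control guts sat beside genes that stayed silent or beside highly expressed ones. Ilp2 and Ilp4, which flank Ilp3 and encode other insulin-like peptides, had 0 CPM in every library and at most 0.0431 CPM, in that order. Ance, an angiotensin-converting enzyme gene 121 bp from Ance-2, lay at 1238 ± 76.0 CPM in control and 1310 ± 144 CPM in LamDm0 libraries (log2 fold change -0.10 ± 0.143, adjusted p = 0.73 by edgeR). Act5C, a cytoplasmic actin gene 347 bp from CG4020, lay at 4242 ± 777 CPM and 5526 ± 1618 CPM (0.16 ± 0.213, adjusted p = 0.70). On either side of CG6912 and CG3984, CG42788 and CG3987 had log2 fold changes of 0.62 ± 0.195 (adjusted p = 0.094) and 0.64 ± 0.18 (adjusted p = 0.064) and did not pass in the same edgeR fit. Gyc89Db, next to Gyc89Da and also a guanylyl cyclase gene, had 1 count over the 8 libraries, and CG8006 beside tut was at 0.

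Genes with the same symbol root as a member were mostly low in both groups. There were 41 such relatives, of which 16 were tested, 0 were higher and 2 were lower (12.5%, beside 8.03% of all tested genes), with a median log2 fold change of 0.42. At an unadjusted p under 0.05 edgeR had 5 higher and 2 lower, DESeq2 called 3 higher and 2 lower, and limma-voom called 0 higher and 2 lower. Both calls were neprilysin-like genes, a family in which 10 of 18 relatives of Nepl18 were tested. Nepl12 had 4.25, 4.82, 1.88 and 3.28 CPM in control and 0.562, 0.748, 0.375 and 0.333 CPM in LamDm0 libraries (log2 fold change -2.94 ± 0.406, adjusted p = 0.0040 by edgeR, at most 0.017 without 1 library, and -3.66 on the log2 scale without LamDm0 replicates 1 and 2). It moved opposite to Nepl18. Nepl3 was lower by less, at 3.05, 3.35, 3.85 and 4.31 CPM against 1.61, 2.55, 2.33 and 2.33 CPM (-0.91 ± 0.225, adjusted p = 0.041, lost in 7 of 8 fits without a library, with p up to 0.11). Nepl6 and Nepl21 were higher in every LamDm0 library but did not pass, with log2 fold changes of 2.54 ± 0.679 (adjusted p = 0.055) and 1.64 ± 0.488 (adjusted p = 0.078).

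Of the 7 other insulin-like peptide genes, Ilp6 alone was tested and missed the threshold (0.77 ± 0.811 on the log2 scale, adjusted p = 0.61 by edgeR). kek5, another kekkon gene, lay at 31.4 to 44.1 CPM in control and 30.7 to 54.8 CPM in LamDm0 libraries and did not pass (-0.08 ± 0.131, adjusted p = 0.75). Rbf, the other retinoblastoma family gene, did not pass either (0.06 ± 0.1, adjusted p = 0.76), nor did Ance-4 (1.75 ± 0.614, adjusted p = 0.13). Loxl2, the other lysyl oxidase gene, had at most 0.044 CPM in any library, and Tektin-A was at 0 in all of them.

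Genes that act with the members' products were listed from general knowledge. Of 37 written, 35 matched a gene, 27 were tested, 1 was higher and 1 was lower (7.41%, beside 8.03% of all tested genes), and 25 did not pass. In the insulin pathway, foxo, the transcription factor that insulin signalling restrains, was at 84.2, 98.8, 70.7 and 71.0 CPM in control and 54.2, 53.1, 69.5 and 77.6 CPM in LamDm0 libraries (log2 fold change -0.54 ± 0.102, adjusted p = 0.016 by edgeR, 0.052 without LamDm0 replicate 3). Its groups overlapped by column-total CPM, and the fit is on the TMM scale. Krn, a ligand of the EGF receptor on which kek1 acts, was higher, at 14.5, 12, 9.89 and 10.8 CPM against 16.4, 16.1, 19.5 and 26.3 CPM (0.54 ± 0.125, adjusted p = 0.034 by edgeR, lost in 7 of 8 fits without a library, p up to 0.091). The receptor gene Egfr did not pass (-0.32 ± 0.213, adjusted p = 0.40).

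Partners of feo and Nuf2 had positive log2 fold changes and did not pass edgeR's adjusted test. The central spindle genes tum and pav, subunits of the centralspindlin complex, had values of 1.67 ± 0.444 (adjusted p = 0.054 by edgeR) and 1.69 ± 0.546 (adjusted p = 0.10). Of the 4 central spindle genes, 3 were higher at an unadjusted p under 0.05, DESeq2 called 2 and limma-voom 1. Ndc80, which encodes the partner of Nuf2 in its complex, had 0.72 ± 0.409 (adjusted p = 0.33). The E2F genes E2f1, E2f2 and Dp lay at log2 fold changes of -0.08, 0.07 and -0.03 and did not pass. Among piRNA pathway genes, zuc, the nuclease gene, had 0.239, 0.507, 0.3 and 0.345 CPM in control and 0.824, 0.836, 0.75 and 1.22 CPM in LamDm0 libraries, above control in all 4 without passing (1.20 ± 0.317, adjusted p = 0.053 by edgeR). The collagen IV genes Col4a1 and vkg, which encode substrates of the kind lysyl oxidases act on, did not pass (1.00 ± 0.462, adjusted p = 0.23, and 0.84 ± 0.448, adjusted p = 0.30). The partners of tut in the germline, bam and bgcn, had at most 0.0431 and 0.222 CPM in any library.

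Markers of other tissues that a dissected gut can carry, and of gut cell types, also differed between libraries. Fat body markers summed to 15.2 to 783 CPM in control and 1110 to 1730 CPM in LamDm0 libraries, so the LamDm0 libraries were higher throughout, though 0 of the 5 tested passed edgeR (1 higher at an unadjusted p under 0.05, 0 in DESeq2 and 0 in limma-voom). Malpighian tubule markers summed to 27.5 to 175 CPM and 17.3 to 88.8 CPM, and 1 of 5 passed, Oatp58Db, which was lower in LamDm0 guts. The spermatheca genes Send1 and Send2 summed to 0 to 8.26 CPM in control libraries, with counts in replicates 1 and 2 only, and at most 0.0833 CPM in LamDm0 libraries. Hemocyte markers summed to 89.8 to 135 CPM and 111 to 151 CPM, with 0 of 3 tested passing edgeR (0 unadjusted, 1 higher in DESeq2, 0 in limma-voom). Genes listed as enterocyte markers summed to 20100 to 24800 CPM in control and 18500 to 28000 CPM in LamDm0 libraries. Of these, 3 of 7 were lower, Alp4 and the digestive genes Amy-p and Amy-d (adjusted p = 0.037, 0.039 and 0.016 by edgeR). Which cells or tissue the Alp4 counts came from was not tested. Leaving out a library ended the call in 5 of 8 fits for Alp4 (p up to 0.097), 5 of 8 for Amy-p (up to 0.099) and 1 of 8 for Amy-d (0.052 without LamDm0 replicate 4). Enteroendocrine markers summed to 64.1 to 120 CPM in control and 87.3 to 201 CPM in LamDm0 libraries, and 0 of 7 passed edgeR (2 higher at an unadjusted p under 0.05, 1 higher in DESeq2, 0 in limma-voom). Of these, the peptide hormone gene Mip, picked out after its values were seen, had 2.05, 1.01, 2.83 and 2.72 CPM in control and 3.45, 4.53, 6.04 and 7.16 CPM in LamDm0 libraries, without overlap (log2 fold change 1.06 ± 0.332, SE, adjusted p = 0.092 by edgeR). The eye pigment gene w, a common transgene marker, lay at 71.3 to 378 CPM and 76.7 to 126 CPM and did not pass (adjusted p = 0.33). The part of these tissues and cells in the levels of the 24 genes was not tested.

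In the authors' deposited table of their own comparison, all 24 genes had a fold change in the same direction and an adjusted p under 0.05. Their log2 fold changes were between 1.3 and 5.13 in size. That comparison used the same libraries and the same contrast that chose the genes, so nothing is read from its directions or p-values.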

How the data were processed

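RNA was sequenced from 4 control and 4 LamDm0 gut libraries. The authors deposited raw counts per gene for 17559 genes and a table of their own comparison, whose log2 fold changes and p-values were read only beside the values computed here. Its mean normalised signal column, per the file headers, was not used. The submitters' processing notes give build BDGP6 and list DESeq2 1.10.1, TopHat2 2.0.13 and HTSeq 0.6.0, without roles, and the strand setting is not given in the sources used here. Libraries were made from 100 ng of RNA and read as 50 nt reads.

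The genes, lists and rule were chosen with earlier results of these data known. CPM are counts over column totals. edgeR 4.0.16 in R 4.3.3 tested 8794 genes after filterByExpr, with TMM scaling and a two-sided quasi-likelihood F-test, adjusted by Benjamini-Hochberg at 0.05 over all genes tested. Fold changes of the fit are log2, LamDm0 over control. Intervals of pooled counts are exact binomial (95%). Neighbours and coordinates come from Ensembl 115, BDGP6.54. Full values were given for the members with the highest level or a gene name, and for every neighbour or relative past the test. Relatives share a symbol root. A search by protein sequence, protein length and promoter motifs was not made, since no sequence was used here. In simulated counts with 200 of 8713 genes changed, 58.6% were recovered at 2-fold and 89.9% at 4-fold, and 3.25% of calls were unchanged genes. The simulated libraries were drawn independently, whereas some real libraries lay close in pairs, so these shares are not error rates of the calls given here. DESeq2 1.42.0, limma-voom 3.58.1, other scalings, filters, thresholds and leave-outs were alternatives.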

Additional observations from a re-analysis of the deposited data

Results flagged for a closer look

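In 64 sets of 4 libraries (a member or a called neighbour or relative in a group), a library was noted when its gap to the nearest other over the range exceeded Dixon's 95% critical value. Chance flags about 1 set in 20. CG5892 in LamDm0 replicate 2 had 1.1 CPM while the other LamDm0 libraries had 0.0833 to 0.25 CPM, a gap of 0.836 of the range. CG32641 in LamDm0 replicate 4 had 8.19 CPM while the others had 6.74 to 6.95 CPM, a gap of 0.859 of the range. By the same measure, CG32640 in control replicate 4 and Gyc89Da in LamDm0 replicate 3 also stood apart. They had 1 and 2 counts, in that order, and the other libraries of their group had 0.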

How the results depend on the processing

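Over all genes, 419 were called higher and 287 lower. These counts were 273 and 187 when only genes averaging 10 CPM or more were kept, 211 and 121 with the replicate block, 36 and 36 with replicates 1 and 2 and replicates 3 and 4 summed, and 659 and 628 with DESeq2. Without LamDm0 replicates 3 and 4, 137 were lower, and leaving out each library in turn gave 214 to 387 higher and 132 to 267 lower. The called neighbours, 6, became 2 at 10 CPM, 2 without LamDm0 replicates 3 and 4, 0 when summed, 11 with DESeq2, 4 with the replicate block and 3 to 7 with a library left out. Relatives and partner genes were counted under the same settings, added after seeing the data. The 2 relatives became 1 with no filter, 0 at 10 CPM, 1 with the replicate block, 1 without LamDm0 replicates 1 and 2, 1 without 3 and 4, 0 when summed, 5 with DESeq2 and 1 to 2 with a library left out. The 2 partners became 0 with the replicate block, 1 without LamDm0 replicates 1 and 2, 0 without 3 and 4, 0 when summed, 5 with DESeq2 and 0 to 3 with a library left out. Replicate numbers were not taken to pair the samples. Same-numbered libraries had correlations of deviations between -0.388 and -0.0116, and differently numbered ones between -0.153 and 0.326. Such correlations cannot settle how the samples were collected. The 17 and 7 genes that the rule took became 7 and 4 under 0.25 CPM in the silent group, 88 and 29 under 1 CPM, 5 and 2 at 2 CPM in the on group, 89 and 23 at 0.5 CPM, 14 and 10 with TMM-scaled CPM or DESeq2 size factors, and 17 to 26 and 7 to 11 with a library left out. With either of those scalings, Ance-2, FBgn0038762 and Nepl18 left the set, and all 7 genes on in control guts stayed. Summed replicates leave fewer libraries, and the 10 CPM filter leaves fewer genes. The fit of all libraries also counts as independent those that lay close to each other. Examples are control replicates 1 and 2 (chi-square per gene 28.43) and LamDm0 replicates 3 and 4 (48.35). The cause of these changes was not tested for any setting. No direction turned. Of the fold changes of members, 285 moved by less than 1 SD of the replicates on the log2 scale and 51 by more. Relatives by protein sequence, protein length and promoter motifs were not run. At 1 to 3 counts in the silent group the depth sets how far a ratio can be read.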
